A study of Mus musculus with 16 samples.

Results

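The vascular basement membrane is the thin sheet of matrix that lies under the endothelium, and 9 genes for its chains are described here: the collagen IV chains Col4a1 and Col4a2, the laminin chains Lama1, Lama4, Lama5 and Lamc1, the nidogens Nid1 and Nid2, and the perlecan core protein Hspg2. They were taken by name, as every array probe that carries 1 of these symbols, which gave 12 probes of the 55594 with a value on every array and 9 genes of the 24579 tested. The 9 genes were chosen with earlier results of these data known, so shares of all genes given beside their counts are a description. The cells were mouse cells positive for VE-cadherin, an adhesion protein of endothelial junctions, sorted by flow cytometry at mid-gestation (E11.5) and hybridised to 1-colour arrays without culture. They came from animals that carry an Etv2 transgene switched on by a Tie-2 Cre transgene (Tie-2-Etv2), or from control animals. Etv2 is a transcription factor of the ETS family that specifies blood and vessel precursors, and Tie-2 Cre is active in endothelial cells and in much of the blood lineage. Each genotype was sorted as CD45+ and CD45- cells, where CD45 is the common leukocyte antigen, from the yolk sac and from the embryo proper. This made 8 groups of 2 arrays, 16 arrays in all, and every group was of mixed strain, B6/CBA and others. For the 2 transgenic CD45- samples of the embryo the title names Tie-2 alone, and the genotype field gives Tie-2-Etv2. What alleles the controls carry, and whether replicates are separate embryos or litters, is not stated in the labels, so p-values rest on the scatter of these samples alone, part of which could be technical.

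Basement membranes are built on a network of laminin, a trimer of an alpha, a beta and a gamma chain, to which a second network of type IV collagen is added. Nidogens bind the laminin gamma1 arm and collagen IV, and perlecan, a heparan sulfate proteoglycan, binds both networks and holds growth factors. Endothelial cells are known for laminins with the alpha4 and alpha5 chains, while alpha1 is the chain of early embryonic and epithelial basement membranes such as those of yolk sac endoderm in the mouse.

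Col4a1 and Col4a2 are shown first as sequence because they form a head-to-head pair, transcribed in opposite directions from a shared start region, and because their levels moved together on these arrays. The RefSeq promoter windows (GRCm38.p6) run from 250 bases before to 50 bases after the annotated start, and the starts of the pair lie 21 bases apart. The annotated starts are crossed, at 11312826 for Col4a1 and 11312805 for Col4a2, so each transcript runs over the start of the other. The window of Col4a1 is chr8:11312777-11313076 on the minus strand and that of Col4a2 is chr8:11312555-11312854 on the plus strand. Capitals mark the 78 bases that both windows hold, chr8:11312777-11312854, which are 73.1% G and C.
Col4a1: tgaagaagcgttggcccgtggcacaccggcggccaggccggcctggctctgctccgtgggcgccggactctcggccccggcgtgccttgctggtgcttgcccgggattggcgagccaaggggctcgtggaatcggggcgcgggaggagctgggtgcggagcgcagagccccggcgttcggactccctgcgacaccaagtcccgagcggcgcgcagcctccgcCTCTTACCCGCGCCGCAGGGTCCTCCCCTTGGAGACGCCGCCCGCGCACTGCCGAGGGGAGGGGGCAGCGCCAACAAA
Col4a2: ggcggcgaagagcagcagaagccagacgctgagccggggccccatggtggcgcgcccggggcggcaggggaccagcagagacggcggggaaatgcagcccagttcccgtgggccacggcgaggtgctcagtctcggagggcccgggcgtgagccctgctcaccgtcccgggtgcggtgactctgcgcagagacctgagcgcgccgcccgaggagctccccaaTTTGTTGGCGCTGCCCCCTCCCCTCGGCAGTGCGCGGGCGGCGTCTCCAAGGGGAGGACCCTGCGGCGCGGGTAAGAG
The window table held 5 of the 9 members. The letters GGAA (TTCC on the other strand), the core that ETS factors such as Etv2 recognise, occurred 1 time in the Col4a1 window, 2 times in that of Col4a2, 4 times in that of Lama5, 2 times in that of Hspg2 and 7 times in that of Nid1. They occurred in 96.0% of all 32851 windows, with a median of 3, so such matches are common. The longer CGGAAG, which contains GGAA and was read on both strands, was found 1 time, in the Lama5 window, and in 16.9% of all windows. GGGCGG, also read on both strands, was present in all 5 windows, and in 35.7% of all windows. A match describes letters and not a bound site.

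Each probe has 60 bases, and coordinates of probes are on mm9, as in the files. The probes used lie on chromosome 8 for Col4a1 (11199009 to 11199068) and Col4a2 (11448840 to 11448899), and on chromosome 17 for Lama1 (68171924 to 68171983). Those of the other laminin chains lie on chromosome 10 for Lama4 (38825794 to 38825853), chromosome 2 for Lama5 (179911079 to 179911138) and chromosome 1 for Lamc1 (155066156 to 155066215). The nidogen probes lie on chromosome 13 for Nid1 (13604435 to 13604494) and chromosome 14 for Nid2 (20630490 to 20630549), and that of Hspg2 on chromosome 4 (137126392 to 137126451). Whether a probe lies in coding sequence or in a UTR is not given in the files. Both probes below are printed because a result turns on them: Lama4 moved in opposite directions in the CD45+ and CD45- cells of the yolk sac, and the second probe of Nid1 spans 25855 bases of the gene (13530138 to 13555992) and so joins exons.
Lama4 probe: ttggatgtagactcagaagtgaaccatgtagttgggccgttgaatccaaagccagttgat
Nid1 second probe: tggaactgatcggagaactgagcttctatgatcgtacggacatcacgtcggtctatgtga

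All 9 members were measured well above background on all 16 arrays by the brightest probe, which stands for the gene. Levels below are log2 processed intensities, set so that 0 is the 75th percentile over all probes of an array. Between 50.6% and 59.9% of probes were well above background on an array, and replicates correlated at 0.975 to 0.992 over genes. Having 2 arrays a group limits the precision. Each tissue lay on a slide of its own and each CD45 gate in a slide row of its own, so in comparisons of tissues or gates the slide or its row and the group cannot be told apart. Tie-2-Etv2 and control arrays of a population shared a slide and a row, but Tie-2-Etv2 arrays lay in slide columns 3 and 4 and control arrays in columns 1 and 2, so genotype and slide column cannot be told apart. Etv2 read 3.90 and 3.26 on Tie-2-Etv2 arrays against -2.60 and -2.95 on control arrays in yolk sac CD45- cells, and it was higher on both transgenic arrays in the other 3 populations too. Its difference passed in both yolk sac populations and missed the threshold in embryo CD45- cells (2.50 ± 0.96, adjusted p = 0.573) and embryo CD45+ cells (3.09 ± 0.96, adjusted p = 0.123). The SE is shared by all groups, and the yolk sac CD45+ control arrays lay far apart, at -6.20 and -2.09. Embryo arrays were closer: 2.58 and 2.13 against -0.14 and -0.13 on control arrays in CD45- cells, and 0.11 and 0.94 against -2.39 and -2.75 in CD45+ cells. Cdh5, the gene of VE-cadherin, was well above background on all 16 arrays, and Ptprc, the gene of CD45, was not well above background in embryo CD45- cells of either genotype or in control yolk sac CD45- cells. In yolk sac CD45- cells of Tie-2-Etv2 animals Ptprc was well above background on 1 array or both.

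Across the 8 groups the chains were highest in CD45- cells, and for 8 of 9 members the highest group was yolk sac CD45- control. Col4a1 averaged 8.15 ± 0.21 there (SD, n = 2), Col4a2 7.86 ± 0.17, Lama1 7.79 ± 0.48, Nid1 6.35 ± 0.16 and Lamc1 6.14 ± 0.03. Hspg2 averaged 5.71 ± 0.08, a level that the embryo CD45- control arrays overlapped. Lama4 was the exception and was highest in embryo CD45- control cells, at 4.74 ± 0.04, followed by embryo CD45- Tie-2-Etv2 cells at 4.38 ± 0.08 and yolk sac CD45- control cells at 4.35 ± 0.09, and these last 2 groups overlapped. For 8 of 9 members the 4 CD45- groups had the 4 highest means. Nid2 differed, as its yolk sac CD45+ control level of 3.67 ± 0.01 stood above the yolk sac CD45- Tie-2-Etv2 level of 3.06 ± 0.65. For Lama5 the yolk sac CD45- Tie-2-Etv2 arrays, at 0.99 ± 0.44, overlapped the yolk sac CD45+ control arrays, at 0.85 ± 1.17. Among the 4 CD45+ groups many neighbours in this order overlapped, as for Col4a1, where embryo Tie-2-Etv2 (0.27 ± 0.06), yolk sac Tie-2-Etv2 (0.23 ± 0.29) and embryo control (-0.05 ± 0.38) did not separate.

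**Figure D1:**
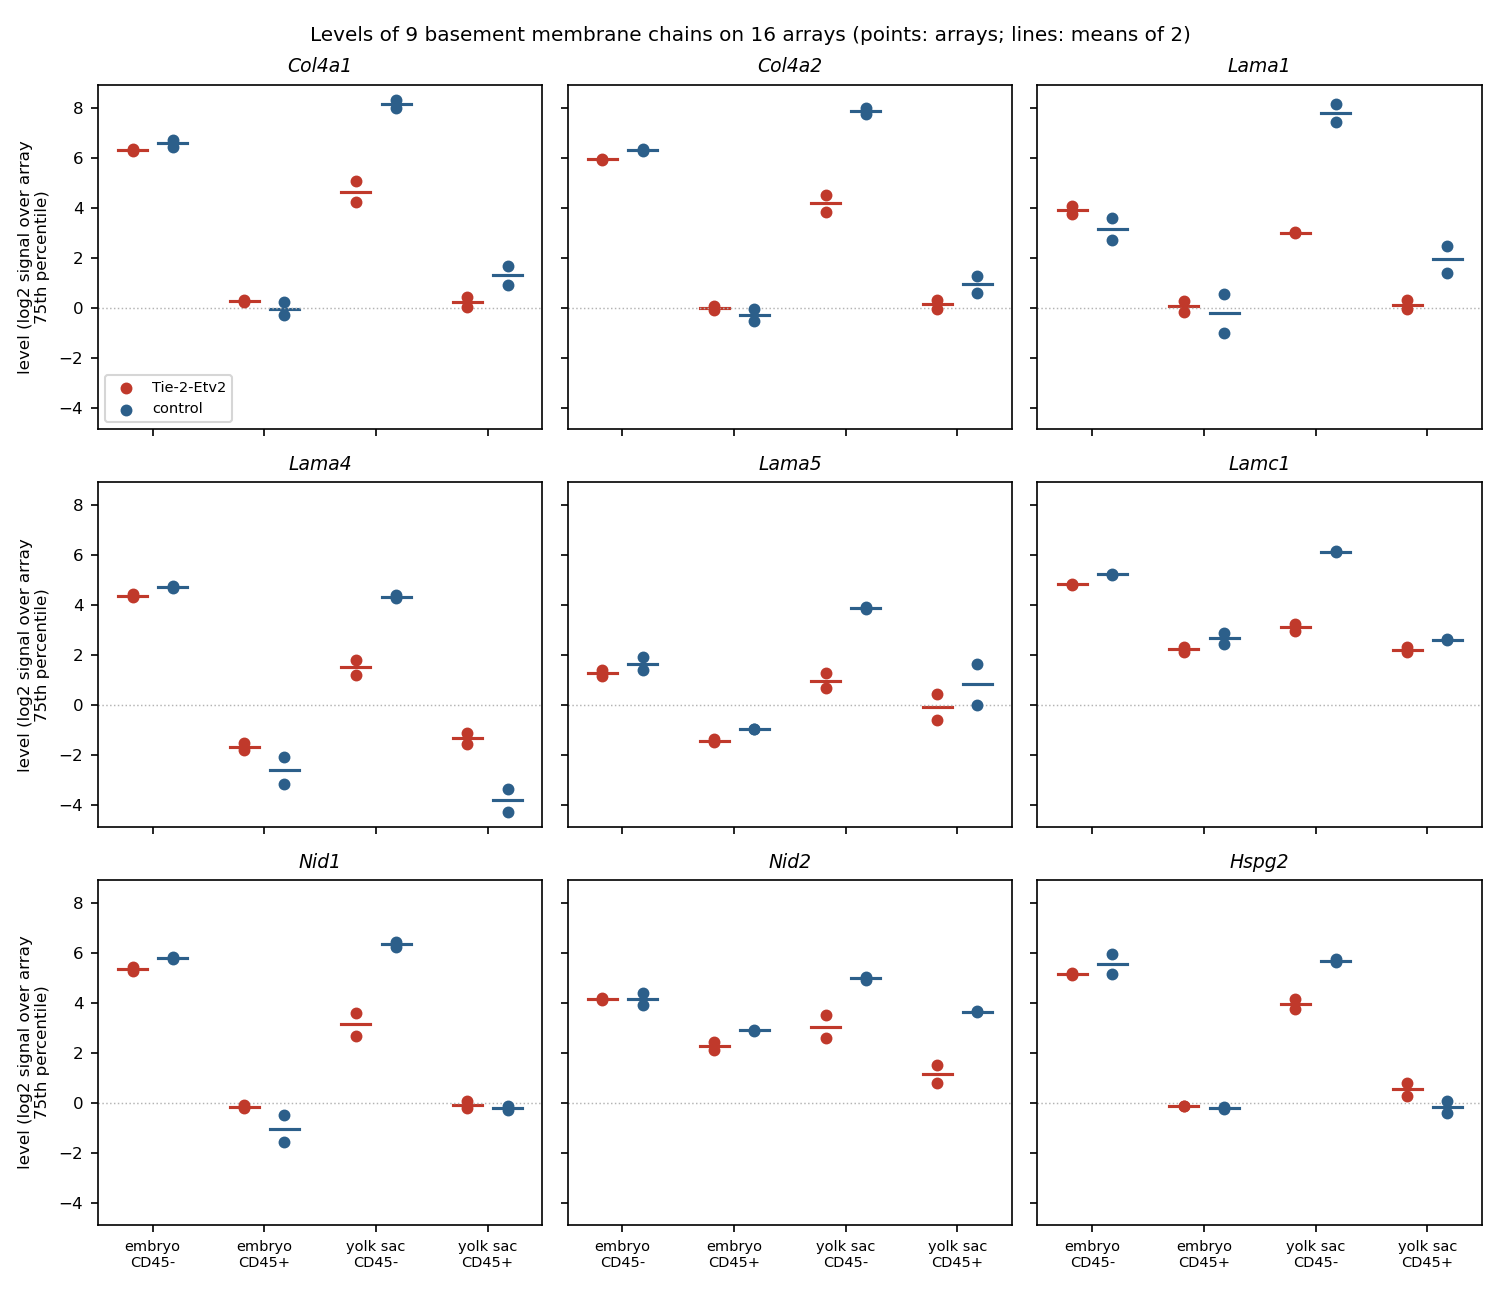
Levels of the 9 chains on every array. Each panel is a gene, the horizontal axis gives the 4 populations with Tie-2-Etv2 (red) left of control (blue), points are arrays, lines are means of 2 arrays, and the vertical axis is log2 signal over the array's 75th percentile. In yolk sac CD45- cells all 9 genes are lower in Tie-2-Etv2, while in embryo CD45- cells the genotypes lie close together.

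In CD45- cells of the yolk sac, all 9 chains fell in Tie-2-Etv2 animals relative to controls. The falls ran from 3.37-fold for Hspg2 to 27.7-fold for Lama1, and no Tie-2-Etv2 array reached the level of a control array for any member. This comparison sets the VE-cadherin+ CD45- fraction of Tie-2-Etv2 yolk sacs against the same sorted fraction of control yolk sacs. Differences here and below are Tie-2-Etv2 minus control on the log2 scale ± SE, from a limma model over all 16 arrays, with p-values adjusted by Benjamini-Hochberg over 24579 genes and called under 0.05. Of all genes, 15.8% were called lower, 26.1% higher and 41.9% in either direction, so calls were frequent in this comparison. Of those calls 62.3% were higher, and 42% when arrays were scaled on probes detected on all 16 arrays, which moved the median of all genes by -0.315. The median difference of the 9 members was -3.01, against 0.18 for all genes.

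The collagen IV chains wind together into the trimer that forms the main endothelial collagen network. Col4a1 read 4.24 and 5.05 on Tie-2-Etv2 arrays, against 8.00 and 8.30 on control arrays. It was 11.4-fold lower (-3.51 ± 0.33, adjusted p = 2.85e-05). Both transgenic arrays lay far below both controls, and the transgenic pair was the more spread. Col4a2 read 3.84 and 4.52 on Tie-2-Etv2 arrays, against 7.73 and 7.98 on control arrays, and was 12.8-fold lower (-3.68 ± 0.29, adjusted p = 1.03e-05). The Col4a1 probe was spotted 10 times on each array, and those repeat spots, a measure of technical noise alone, varied by a coefficient of 1.66% to 6.84%.

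Among the laminin alpha chains, which carry most of the receptor binding sites, Lama1 changed the most. It read 3.02 and 2.97 on Tie-2-Etv2 arrays, against 7.45 and 8.13 on control arrays (-4.79 ± 0.52, adjusted p = 7.24e-05). Its 2 transgenic arrays were nearly equal. Lama4, the alpha4 chain, read 1.22 and 1.83 on Tie-2-Etv2 arrays, against 4.29 and 4.41 on control arrays (-2.83 ± 0.38, adjusted p = 0.000266). Lama5, the alpha5 chain, read 0.68 and 1.30 on Tie-2-Etv2 arrays, against 3.94 and 3.85 on control arrays (-2.91 ± 0.49, adjusted p = 0.000953). These were falls of 7.12-fold and 7.50-fold, again without overlap. Lamc1, the gamma1 chain shared by most laminins, read 2.99 and 3.27 on Tie-2-Etv2 arrays, against 6.12 and 6.16 on control arrays. It was 8.04-fold lower and had the smallest adjusted p of the 9 (-3.01 ± 0.18, adjusted p = 1.58e-06).

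The linker proteins fell as well. Nid1 read 2.69 and 3.61 on Tie-2-Etv2 arrays, against 6.24 and 6.46 on control arrays (-3.20 ± 0.35, adjusted p = 7.65e-05). In a fit of every probe its second probe gave -2.89 ± 0.82 (adjusted p = 0.0179) and its other probe -3.64 ± 0.46 (adjusted p = 0.000192), so all 3 Nid1 probes fell. Nid2 read 2.59 and 3.52 on Tie-2-Etv2 arrays, against 4.94 and 5.06 on control arrays, a 3.85-fold fall (-1.94 ± 0.31, adjusted p = 0.000732). Perlecan showed the smallest fall of the 9. Hspg2 read 3.76 and 4.16 on Tie-2-Etv2 arrays, against 5.76 and 5.65 on control arrays (-1.75 ± 0.28, adjusted p = 0.000755), and its second probe gave -2.19 ± 0.31 (adjusted p = 0.000411). For every member but Lama1 the second transgenic array was the higher.

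Marker genes of several cell types moved in the same comparison, and their part in the falls was not tested. Of 11 endothelial markers 8 fell, with a median of -1.97, and their summed log2 signal was 9.42 to 9.51 on Tie-2-Etv2 arrays, against 10.26 to 10.46 on control arrays. All 10 leukocyte markers rose, from a summed signal in which Ptprc and Cd52 were not well above background in controls: it was 7.99 to 8.52 on Tie-2-Etv2 arrays and 1.89 to 2.05 on control arrays. Of 10 megakaryocyte markers 9 rose, with sums of 9.70 to 10.14 on Tie-2-Etv2 arrays and 2.74 to 3.14 on control arrays. Epithelial markers summed to 4.26 to 5.53 on Tie-2-Etv2 arrays, against 7.59 to 7.94 on control arrays, with 3 of 7 lower. Mural and mesenchymal markers summed to 5.63 to 6.07, with Myh11 and Des not well above background, against 7.27 to 7.33 on control arrays, and 7 of 16 were lower. Yolk sac endoderm markers summed to 7.94 to 9.62 on Tie-2-Etv2 arrays and 9.58 to 9.72 on control arrays, with 2 of 14 lower and 1 higher. In such bulk samples a smaller share of some cell type and a lower content of RNA in each cell give the same reading. The data do not separate them: these cannot be told apart here by any of the values.

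In CD45- cells of the embryo proper, none of the 9 chains passed the test, and their levels in the 2 genotypes lay within 1.69-fold of each other. Of all genes 1.29% were called there, 1.25% higher and 0.0325% lower. Before adjustment, 1 member had a p under 0.05. The differences ran from -0.42 ± 0.35 for Nid1 to 0.76 ± 0.52 for Lama1, with adjusted p from 0.715 to 1 in limma.

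Col4a1 read 6.36 and 6.28 on Tie-2-Etv2 arrays, against 6.71 and 6.43 on control arrays, and Col4a2 read 5.93 on both Tie-2-Etv2 arrays, against 6.36 and 6.28. Lama4 read 4.44 and 4.33 on Tie-2-Etv2 arrays, against 4.77 and 4.72 on control arrays. Both collagen chains and Lama4 were thus slightly lower on each transgenic array than on each control array, as were Lamc1 and Nid1. Lamc1 read 4.83 and 4.86 on Tie-2-Etv2 arrays, against 5.23 and 5.27 on control arrays, and was the member with the lowest adjusted p (-0.40 ± 0.18, adjusted p = 0.715). Lama1 was the member that was higher on both transgenic arrays, at 4.07 and 3.75, against 2.71 and 3.60 on control arrays. Lama5, Nid2 and Hspg2 overlapped. Of 10 leukocyte markers 8 were higher and of 10 megakaryocyte markers 8 were higher in this population, while none of 11 endothelial markers passed the test. The summed endothelial signal was 9.94 to 10.02 on Tie-2-Etv2 arrays, against 10.10 to 10.18 on control arrays.

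The genotype effect in CD45- cells differed between the tissues for all 9 chains when that difference was itself tested. The yolk sac effect minus the embryo effect ran from -1.34 ± 0.40 for Hspg2 (adjusted p = 0.0467) to -5.55 ± 0.73 for Lama1 (adjusted p = 0.00184). Of all genes 6.4% were called lower and 9.54% higher in this test. Of those calls 59.8% were higher, against 48.1% after quantile normalization and 31.7% when arrays were scaled on probes detected on all 16. Lamc1 (-2.61 ± 0.25, adjusted p = 0.000532) and Col4a2 (-3.29 ± 0.41, adjusted p = 0.00147) were the firmest. Without embryo CD45- Tie-2-Etv2 replicate 1, yolk sac CD45- control replicate 2 or yolk sac CD45- Tie-2-Etv2 replicate 1 the count was 5, with Hspg2, Lama4, Lama5 and Nid2 lost. The values of those 4 without these arrays ran from -0.934 to -1.39 for Hspg2, -2.17 to -2.41 for Lama4, -2.24 to -2.68 for Lama5 and -1.49 to -1.91 for Nid2 over the arrays whose removal ended the call. The same 5 members, Col4a1, Col4a2, Lama1, Lamc1 and Nid1, were called whichever array was left out. Without the filter on dim probes the count was 7, with Hspg2 (adjusted p = 0.0818) and Lama5 (adjusted p = 0.0556) lost, and Hspg2 was also lost in the fit of every probe (adjusted p = 0.051).

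**Figure D2:**
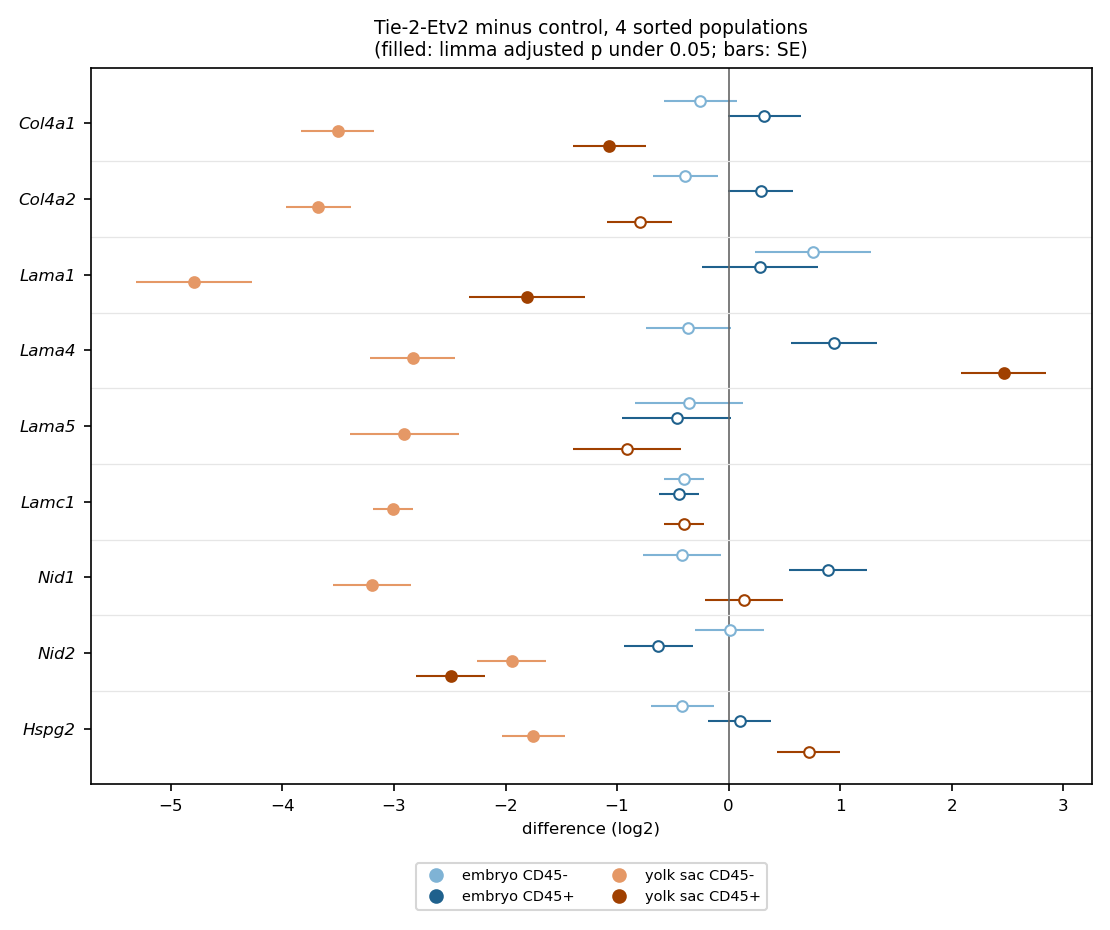
Tie-2-Etv2 minus control difference of each chain in the 4 populations, on the log2 scale. Filled symbols have an adjusted p under 0.05 and bars are SE. In yolk sac CD45- cells all 9 symbols are filled and below 0, in both embryo populations none is filled, and in yolk sac CD45+ cells Lama4 lies above 0 while Nid2, Lama1 and Col4a1 are filled below it.

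In CD45+ cells of the yolk sac, the chains moved in both directions: Lama4 rose and Nid2, Lama1 and Col4a1 fell. Of all genes 32.5% were called in either direction, 18.1% higher and 14.4% lower. The median difference of the 9 members was -0.80, against 0.04 for all genes. Lama4, the alpha4 chain, read -1.55 and -1.09 on Tie-2-Etv2 arrays, against -3.33 and -4.25 on control arrays. It was 5.53-fold higher (2.47 ± 0.38, adjusted p = 0.000752), and both transgenic arrays lay above both controls. The control signals were dim though flagged well above background, at processed intensities of 21.8 and 14.5, so the fold is uncertain. Nid2, the second nidogen, read 0.83 and 1.53 on Tie-2-Etv2 arrays, against 3.66 and 3.68 on control arrays. It was 5.62-fold lower (-2.49 ± 0.31, adjusted p = 0.000216).

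The falls of Lama1 and Col4a1 were smaller, and each call was lost when certain single arrays were left out. Lama1 read -0.04 and 0.29 on Tie-2-Etv2 arrays, against 2.48 and 1.39 on control arrays (-1.81 ± 0.52, adjusted p = 0.0218). Without control replicate 1 its difference was -1.27 (adjusted p = 0.153), without Tie-2-Etv2 replicate 1 it was -1.64 (adjusted p = 0.114), and without Tie-2-Etv2 replicate 2 it was -1.98 (adjusted p = 0.0596). Col4a1 read 0.03 and 0.44 on Tie-2-Etv2 arrays, against 1.68 and 0.92 on control arrays (-1.07 ± 0.33, adjusted p = 0.0287). Without control replicate 1 its difference was -0.69 (adjusted p = 0.195), and without Tie-2-Etv2 replicate 1 it was -0.86 (adjusted p = 0.173). In a fit of these 2 groups alone Lama1 and Col4a1 did not pass (adjusted p = 0.0637 and 0.118), which left Lama4 and Nid2. Col4a2 read -0.05 and 0.32 on Tie-2-Etv2 arrays, against 1.28 and 0.58 on control arrays (-0.80 ± 0.29, adjusted p = 0.0594), and passed without control replicate 2 (-1.15, adjusted p = 0.022). For Lama5 the control arrays were far apart, at -0.58 and 0.45 on Tie-2-Etv2 arrays against 1.68 and 0.02 on control arrays (-0.91 ± 0.49, adjusted p = 0.186). Without control replicate 2 Lama5 passed as lower (-1.74, adjusted p = 0.0112). Hspg2 was higher on both transgenic arrays and did not pass (0.72 ± 0.28, adjusted p = 0.0776), Lamc1 was lower on both and did not pass (-0.40 ± 0.18, adjusted p = 0.118), and Nid1 overlapped (0.14 ± 0.35, adjusted p = 0.794). With the mean over its 3 probes Nid1 was called higher (0.93, adjusted p = 0.05), as the other probes gave 1.66 ± 0.82 and 0.99 ± 0.46, the last of them not well above background on any of these arrays.

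Markers of several cell types moved in the same cells, and their part was not tested. Of 11 endothelial markers 9 rose, with sums of 8.41 to 8.43 on Tie-2-Etv2 arrays against 5.80 to 5.86 on control arrays. Of 11 macrophage markers 10 fell, with sums of 7.52 to 7.73 on Tie-2-Etv2 arrays against 10.86 to 11.25 on control arrays. Of 10 megakaryocyte markers 8 rose and 2 fell, and their mean level was 2.77 to 3.28 on Tie-2-Etv2 arrays against -0.55 to 0.07 on control arrays. Their summed signal went the other way, at 7.81 to 8.36 on Tie-2-Etv2 arrays against 8.87 to 9.35 on control arrays. Yolk sac endoderm markers summed to 8.37 to 8.98 on Tie-2-Etv2 arrays and 9.76 to 10.74 on control arrays, with 1 of 14 lower. Their mean level overlapped, at 1.02 to 2.54 on Tie-2-Etv2 arrays and 2.14 to 3.86 on control arrays, so the fall of the sum does not hold for the list as a whole. Mural and mesenchymal markers summed to 3.71 to 4.04 on Tie-2-Etv2 arrays and 4.83 to 6.10 on control arrays, with 5 of 16 lower and 1 higher. Epithelial markers overlapped in their sums, at 3.93 to 4.63 on Tie-2-Etv2 arrays and 4.11 to 6.29 on control arrays. Their mean level was -0.92 to -0.50 on Tie-2-Etv2 arrays and -0.47 to 1.62 on control arrays. Cdh5 read 2.86 and 3.13 on Tie-2-Etv2 arrays, against -0.44 and -0.08 on control arrays.

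The response of the chains differed between the CD45 gates of the yolk sac for 7 of 9 members, where the CD45+ effect minus the CD45- effect was positive. Of all genes 7.89% were called higher and 10.5% lower in that test. Of those calls 42.9% were higher, and 55.5% when arrays were scaled on probes detected on all 16. Lama4 had the largest difference (5.30 ± 0.54, adjusted p = 0.000124), since it rose in CD45+ cells and fell in CD45- cells. Lamc1 had 2.61 ± 0.25 (adjusted p = 0.000101). Lama1 had 2.98 ± 0.73 (adjusted p = 0.0175), a call that was lost without yolk sac CD45- control replicate 2, CD45- Tie-2-Etv2 replicate 1, CD45+ control replicate 2 or CD45+ Tie-2-Etv2 replicate 2 (2.44 to 3.01). Nid2 fell in both gates, and its difference of -0.55 ± 0.44 did not pass (adjusted p = 0.477). Lama5 had 2.00 ± 0.69 (adjusted p = 0.0725) and passed after quantile normalization, after normexp correction, with the scaling on detected probes, and without yolk sac CD45+ control replicate 1 or Tie-2-Etv2 replicate 1 (2.02 to 2.83).

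In CD45+ cells of the embryo no member passed in limma, with 3 at an unadjusted p under 0.05, where 3.01% of all genes were called (2.29% higher and 0.712% lower). Of the calls over all genes 76.3% were higher, and 58.5% after normexp correction. Lama4 read -1.80 and -1.49 on Tie-2-Etv2 arrays, against -3.13 and -2.05 on control arrays (0.95 ± 0.38, adjusted p = 0.248). Nid1 read -0.09 and -0.18 on Tie-2-Etv2 arrays, against -1.57 and -0.49 on control arrays (0.89 ± 0.35, adjusted p = 0.23). Both were higher on each transgenic array. Without control replicate 2 Nid1 passed (1.43, adjusted p = 0.0461), as it did with the mean of its 3 probes (1.55, adjusted p = 0.0301). The Nid1 probes disagreed in size: the second, exon-joining probe read -2.01 and -3.45 on Tie-2-Etv2 arrays and was not well above background on either control array, which makes it at least 3.51-fold higher (adjusted p = 0.0482), and the other probe was not well above background on any of the 8 CD45+ arrays. Nid2 read 2.43 and 2.13 on Tie-2-Etv2 arrays, against 2.90 and 2.92 on control arrays (-0.63 ± 0.31, adjusted p = 0.367), and Lamc1 was lower on both as well (-0.45 ± 0.18, adjusted p = 0.246). In the embryo no difference of the effect between the CD45 gates was called by limma for any member, with 2 at an unadjusted p under 0.05, where 1.14% of all genes were called. In CD45+ cells no difference of the effect between tissues was called, with 5 at an unadjusted p under 0.05 and 3.13% of all genes called. Of those calls 35.1% were higher, and 24.6% with the scaling on detected probes. Nid2 came closest (-1.86 ± 0.44, adjusted p = 0.0509) and was called under 4 alternatives. Without embryo CD45+ control replicate 2 Lama1 was called (-2.87, adjusted p = 0.0451).

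CD45+ cells had far lower levels of these chains than CD45- cells of the same tissue and genotype. This comparison sets the fraction sorted for the leukocyte antigen against the fraction without it. In control embryos the CD45+ minus CD45- difference was called lower for all 9 members, where 16.6% of all genes were called lower and 19.9% higher. In control yolk sacs it was called lower for all 9, with 15.8% of all genes lower and 22.6% higher. In Tie-2-Etv2 embryos all 9 were lower, with 13.9% of all genes lower and 16.4% higher. In Tie-2-Etv2 yolk sacs 8 of 9 were lower, with 5.93% of all genes lower and 4.46% higher. With the scaling on probes detected on all 16 arrays the higher share of all calls was 44.1% in place of 54.5% in control embryos, 43.9% in place of 58.9% in control yolk sacs and 43% in place of 54.1% in Tie-2-Etv2 embryos, and no member changed direction.

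Lama4 had the widest gap of the 9 in both control tissues. In control embryos it read -3.13 and -2.05 on CD45+ arrays, against 4.77 and 4.72 on CD45- arrays, a 161-fold difference (-7.33 ± 0.38, adjusted p = 2.16e-07). In control yolk sacs it read -3.33 and -4.25 on CD45+ arrays, against 4.29 and 4.41 on CD45- arrays, a 282-fold difference (-8.14 ± 0.38, adjusted p = 1.01e-07). In both tissues the CD45+ arrays lay far below the CD45- arrays. The Lama4 signals on CD45+ arrays were dim, at processed intensities of 29.4 and 77.2 in embryos and 21.8 and 14.5 in yolk sacs. The sizes of these folds are therefore uncertain. Col4a1 read -0.31 and 0.22 on control embryo CD45+ arrays, against 6.71 and 6.43 on CD45- arrays (-6.62 ± 0.33, adjusted p = 1.47e-07). Col4a2, its partner, gave the same -6.62 (± 0.29, adjusted p = 6.12e-08). Nid1 differed by -6.83 ± 0.35 and Hspg2 by -5.78 ± 0.28 in control embryos. In control yolk sacs the values were -6.85 ± 0.33 for Col4a1, -6.93 ± 0.29 for Col4a2, -6.55 ± 0.35 for Nid1 and -5.88 ± 0.28 for Hspg2. Of these 5 chains Hspg2 had the smallest gap, 54.9-fold in control embryos.

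The other members had narrower gaps. Nid2 had the narrowest in control cells: it read 2.90 and 2.92 on control embryo CD45+ arrays, against 4.41 and 3.93 on CD45- arrays, a 2.40-fold difference (-1.26 ± 0.31, adjusted p = 0.00877). That call was lost without embryo CD45- control replicate 1 (-1.02, adjusted p = 0.0663). In control yolk sacs Nid2 differed by -1.33 ± 0.31 (adjusted p = 0.00621). Lamc1, which many cell types use, differed by -2.56 ± 0.18 in control embryos and by -3.51 ± 0.18 in control yolk sacs. Lama5 differed by -2.61 ± 0.49 and -3.05 ± 0.49 in the same order. Lama1 differed by -3.38 ± 0.52 in control embryos and by -5.85 ± 0.52 in control yolk sacs, where its CD45- level was the higher.

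In Tie-2-Etv2 yolk sacs the gaps of every member but Nid2 were smaller than in control yolk sacs, and the difference was called for 7 of them, as tested above. Col4a1 differed by -4.41 ± 0.33 there, Hspg2 by -3.41 ± 0.28, Nid1 by -3.21 ± 0.35 and Lama4 by -2.84 ± 0.38. The Nid1 probes disagreed in a limma fit of every probe. The second Nid1 probe did not pass (-1.12 ± 0.82, adjusted p = 0.588), though it was well above background on every array of both groups. The last Nid1 probe was lower (-3.23 ± 0.46, adjusted p = 0.00119), without a level well above background in CD45+ cells. Lamc1 read 2.15 and 2.32 on CD45+ arrays, against 2.99 and 3.27 on CD45- arrays, a 1.87-fold difference (-0.90 ± 0.18, adjusted p = 0.00829). Its call was lost without CD45- Tie-2-Etv2 replicate 2 (-0.76, adjusted p = 0.0776) or CD45+ Tie-2-Etv2 replicate 1 (-0.81, adjusted p = 0.0823). In a fit of these 2 groups alone Lamc1 (adjusted p = 0.0752) and Nid2 (adjusted p = 0.0924) did not pass. Lama5 did not pass (-1.05 ± 0.49, adjusted p = 0.268). In Tie-2-Etv2 embryos the gaps ran from -1.90 ± 0.31 for Nid2 to -6.04 ± 0.33 for Col4a1. Endothelial markers fell between the gates as well: 11 of 11 were lower in control CD45+ cells of each tissue, with medians of -6.70 in embryos and -6.38 in yolk sacs, 10 of 11 in Tie-2-Etv2 embryos and 9 of 11 in Tie-2-Etv2 yolk sacs (median -1.75). Their part in the gaps was not tested.

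**Figure D3:**
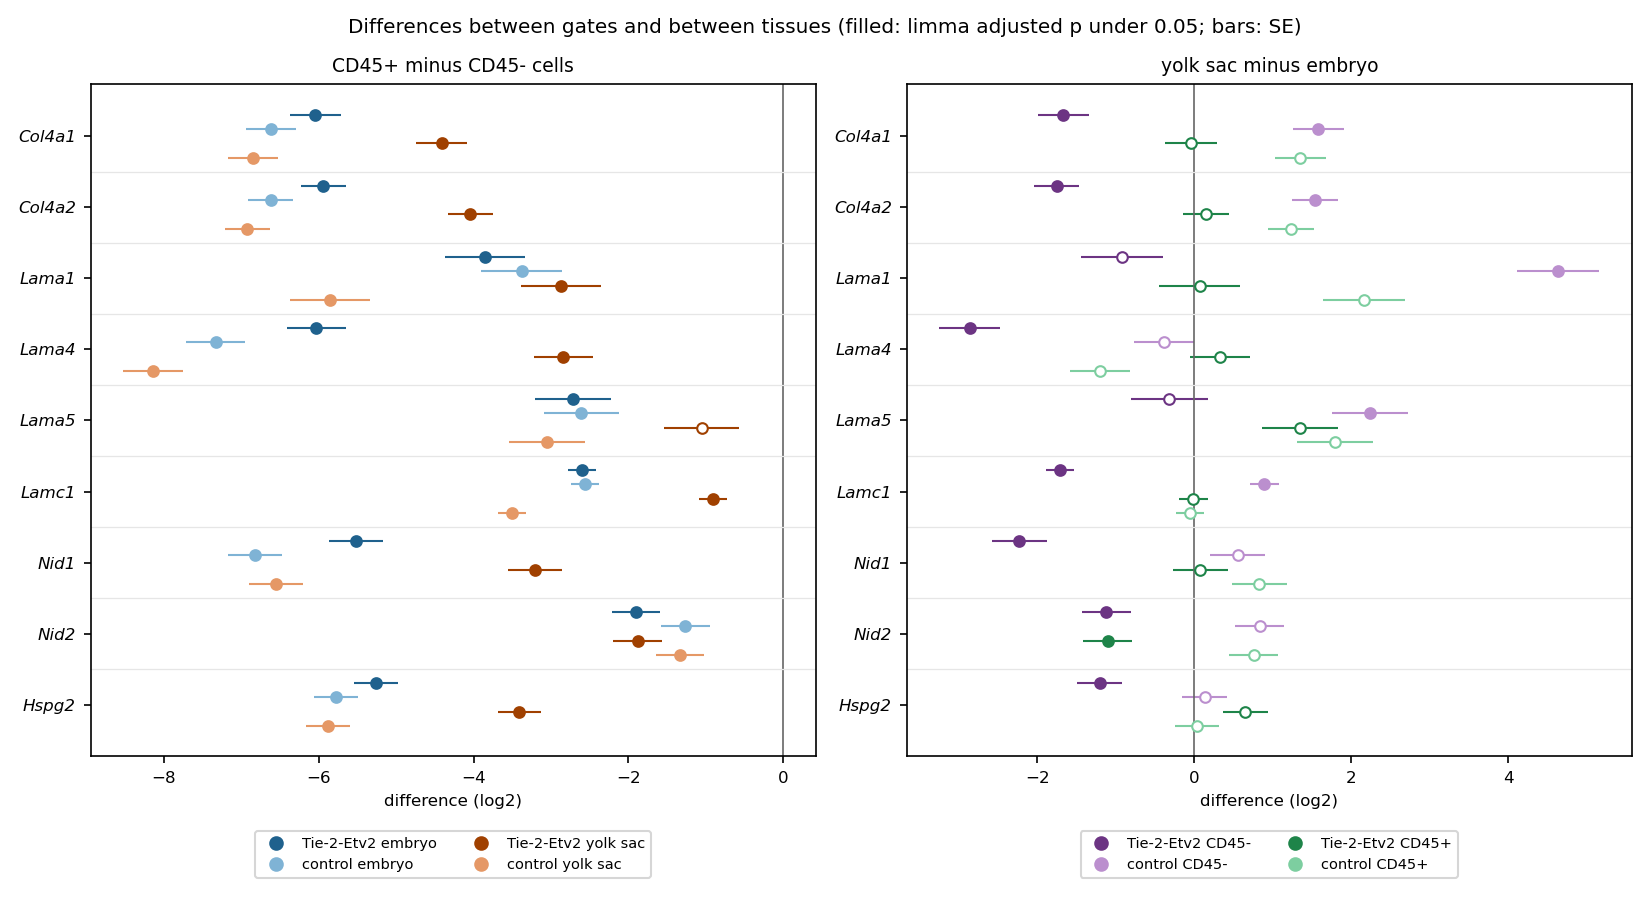
CD45+ minus CD45- differences (left) and yolk sac minus embryo differences (right) of the 9 chains on the log2 scale. Filled symbols have an adjusted p under 0.05 and bars are SE. On the left nearly all symbols are filled and below 0, with Lama4 in control yolk sacs the lowest at -8.14. On the right Lama1 in control CD45- cells is the highest at 4.64.

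Between the tissues, control CD45- cells of the yolk sac had higher levels of 5 of the 9 chains than those of the embryo. The 5 were Lama1, Lama5, Col4a1, Col4a2 and Lamc1, and 5.46% of all genes were called higher and 6.09% lower. The median difference of the 9 members was 0.89, against -0.12 for all genes. Lama1 read 7.45 and 8.13 on yolk sac arrays, against 2.71 and 3.60 on embryo arrays, a 24.9-fold difference (4.64 ± 0.52, adjusted p = 0.000525). Lama5 read 3.94 and 3.85 on yolk sac arrays, against 1.40 and 1.92 on embryo arrays, a 4.71-fold difference (2.23 ± 0.49, adjusted p = 0.0164). Both alpha chains were higher on each yolk sac array. Col4a1 was 2.99-fold higher (1.58 ± 0.33, adjusted p = 0.0132), Col4a2 2.91-fold (1.54 ± 0.29, adjusted p = 0.00879) and Lamc1 1.86-fold (0.89 ± 0.18, adjusted p = 0.0118). Lama4, the alpha4 chain, did not share this pattern, at -0.39 ± 0.38 (adjusted p = 0.563). Nid1 (0.55 ± 0.35, adjusted p = 0.353), Nid2 (0.83 ± 0.31, adjusted p = 0.116) and Hspg2 (0.13 ± 0.28, adjusted p = 0.816) did not pass either.

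Lama1 was called whichever array was left out, and the other 4 were not. Col4a1 was lost without embryo control replicate 2 (1.44), yolk sac control replicate 1 (1.73) or yolk sac control replicate 2 (1.43), and Col4a2 without yolk sac control replicate 2 (1.42). Lama5 was lost without embryo control replicate 1 (1.97) or either yolk sac control replicate (2.19 and 2.28), and Lamc1 without the same 3 arrays (0.875, 0.913 and 0.874). The lost calls had adjusted p of 0.0522 to 0.0973. In a fit of the 2 groups alone Lamc1 did not pass either (adjusted p = 0.0747). Beside these chains, all 7 epithelial markers were higher in yolk sac control CD45- cells, with sums of 7.59 to 7.94 on yolk sac arrays against 2.65 to 4.10 on embryo arrays, and 8 of 14 yolk sac endoderm markers were higher, with sums of 9.58 to 9.72 against 7.00 to 7.64. Apoa4 was not well above background in the embryo cells, nor was Cldn6. Of 11 endothelial markers 1 was higher (median 0.16). The part of these cells in the difference was not tested.

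In Tie-2-Etv2 CD45- cells the tissues stood the other way round, and 7 chains were lower in the yolk sac. Of all genes 12.5% were called lower and 18% higher. With the scaling on detected probes 37.1% of the calls over all genes were higher, in place of 59%. Lama4 read 1.22 and 1.83 on yolk sac arrays, against 4.44 and 4.33 on embryo arrays (-2.86 ± 0.38, adjusted p = 0.000589). Nid1 differed by -2.23 ± 0.35 (adjusted p = 0.00134), Col4a2 by -1.75 ± 0.29 (adjusted p = 0.0018), Lamc1 by -1.71 ± 0.18 (adjusted p = 0.000193) and Col4a1 by -1.67 ± 0.33 (adjusted p = 0.00422). In a limma fit of every probe the second Nid1 probe did not pass (-1.82 ± 0.82, adjusted p = 0.129). The last Nid1 probe passed in that fit (-2.06 ± 0.46, adjusted p = 0.00856). Hspg2 (-1.21 ± 0.28, adjusted p = 0.01) was lost without embryo Tie-2-Etv2 replicate 2 (-1.17) or yolk sac Tie-2-Etv2 replicate 1 (-1.01). Nid2 (-1.12 ± 0.31, adjusted p = 0.0213) was lost without either embryo Tie-2-Etv2 replicate (-1.08 and -1.17) or yolk sac replicate 1 (-0.662). Lama1 (-0.92 ± 0.52, adjusted p = 0.214) and Lama5 (-0.32 ± 0.49, adjusted p = 0.667) did not pass. In a fit of these 2 groups alone Lama1 was called (adjusted p = 0.0394) and Nid2 was not (adjusted p = 0.0869). Of 11 endothelial markers 6 were lower in the yolk sac here, and all 10 leukocyte markers were higher.

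CD45+ cells gave fewer calls between the tissues. In control CD45+ cells no member passed in limma, with 7 at an unadjusted p under 0.05, where 0.614% of all genes were called higher and 1.09% lower. The closest were Col4a2 (1.23 ± 0.29, adjusted p = 0.0674), Lama1 (2.16 ± 0.52, adjusted p = 0.0734) and Col4a1 (1.35 ± 0.33, adjusted p = 0.0746). Without yolk sac control replicate 2 these 3 and Lama5 passed, at 1.58, 2.70, 1.73 and 2.62 in the order Col4a2, Lama1, Col4a1, Lama5. Without embryo control replicate 2 Lama1 passed (2.94). In Tie-2-Etv2 CD45+ cells 1 member was called, Nid2 (-1.10 ± 0.31, adjusted p = 0.0445), where 7.3% of all genes were called lower and 5.28% higher. Its call was lost without either embryo Tie-2-Etv2 replicate (-0.949 and -1.26) or yolk sac replicate 1 (-0.754), without the filter on dim probes (adjusted p = 0.077) and in a fit of the 2 groups alone (adjusted p = 0.0975). With the scaling on detected probes 29.2% of the calls over all genes were higher, in place of 42%.

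The genotype comparisons were then repeated with each gene's level taken relative to the mean of 11 endothelial markers on the same array, since those markers moved with genotype. This asks whether the chains moved more or less than these markers. Which cells in the samples the chains or the markers came from was not tested. The step shifted the median of all genes by 0.26, -1.24, 1.88 and -2.01 in embryo CD45-, embryo CD45+, yolk sac CD45- and yolk sac CD45+ cells. In yolk sac CD45- cells 7 of 9 chains stayed lower, where 3.1% of all genes were called lower and 78.2% higher. Lama1 was lower by the most (-3.09 ± 0.60, adjusted p = 0.000486), followed by Col4a2 (-1.98 ± 0.34, adjusted p = 0.000183), Col4a1 (-1.80 ± 0.37, adjusted p = 0.000734), Nid1 (-1.50 ± 0.39, adjusted p = 0.00343) and Lamc1 (-1.30 ± 0.25, adjusted p = 0.000497). Lama5 (-1.21 ± 0.50, adjusted p = 0.0424) and Lama4 (-1.13 ± 0.42, adjusted p = 0.026) lost the call without any 1 of the 4 arrays compared (-1.08 to -1.33 and -0.984 to -1.27). Nid2 (-0.24 ± 0.31, adjusted p = 0.485) and Hspg2 (-0.05 ± 0.33, adjusted p = 0.894) did not pass. The collagen IV chains, Lama1, Lamc1 and Nid1 thus fell by more than the mean of these markers in yolk sac CD45- cells.

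In yolk sac CD45+ cells 8 of 9 chains were lower relative to the endothelial markers, but so were 88.3% of all genes. Nid2 was the lowest (-4.54 ± 0.31), followed by Lama1 (-3.86 ± 0.60) and Col4a1 (-3.12 ± 0.37). Lama4, the exception, did not pass (0.42 ± 0.42, adjusted p = 0.354), and with normexp correction it was lower (-0.813). In embryo CD45+ cells 6 of 9 were lower, where 77.4% of all genes were called lower, and the count was 2 without embryo CD45+ Tie-2-Etv2 replicate 2. In embryo CD45- cells none passed in limma, with 0 at an unadjusted p under 0.05, where 1.44% of all genes were called.

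**Figure D4:**
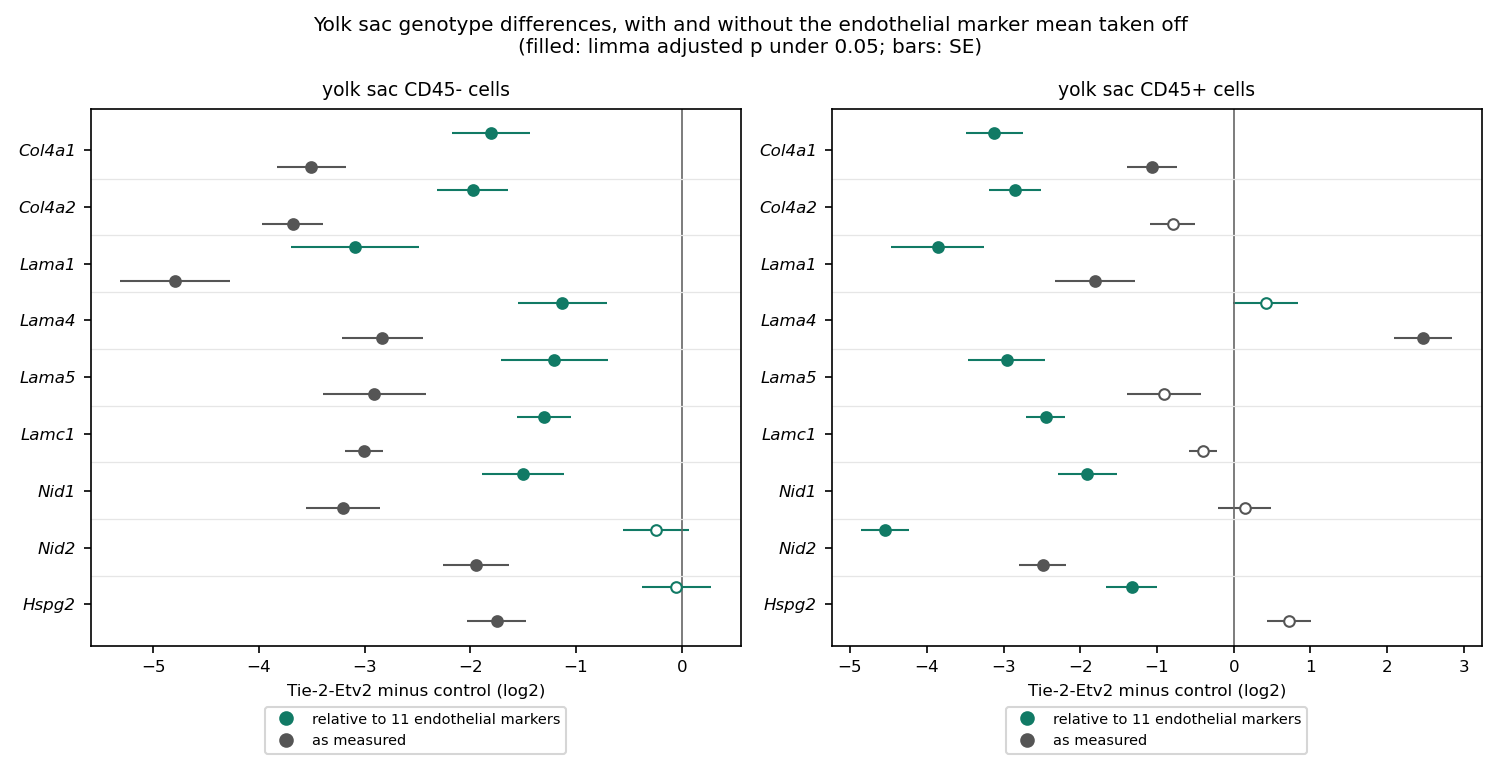
Tie-2-Etv2 minus control differences of the 9 chains in yolk sac CD45- cells (left) and CD45+ cells (right), on the log2 scale, as measured and relative to the mean of 11 endothelial markers. Filled symbols have an adjusted p under 0.05 and bars are SE. On the left Nid2 and Hspg2 move to near 0 once set against the markers, while Lama1 stays at -3.09.

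Other genes of basement membrane assembly fell with the chains in yolk sac CD45- cells of Tie-2-Etv2 animals. These lists were chosen with earlier results of these data known. Of 10 other laminin and collagen IV chains 8 fell and none rose, with a median of -2.61. Lamc3, a laminin gamma chain, differed by -3.66 ± 0.77 (adjusted p = 0.0035). Of 21 other basement membrane components 12 fell and none rose (median -2.13), among them Vwa1, a matrix protein that binds perlecan (-4.10 ± 0.52), and Tinagl1 (-4.04 ± 0.41, adjusted p = 5.27e-05). Of 28 genes that process collagen and laminin 20 fell and none rose (median -1.85). P4ha2, a prolyl hydroxylase that stabilises the collagen helix, had the largest fall (-4.82 ± 0.44, adjusted p = 2.51e-05), and Colgalt2, a collagen galactosyltransferase, fell too (-3.51 ± 0.33, adjusted p = 3.05e-05).

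Receptors and matrix enzymes divided in the same cells. Of 19 receptors of basement membranes 10 fell and 2 rose (median -1.40). The 2 that rose are known from platelets: Itgb3, the beta3 integrin (5.47 ± 0.46, adjusted p = 1.58e-05), and Gp6, the collagen receptor glycoprotein VI (3.01 ± 0.81, adjusted p = 0.0127). The Gp6 call was lost without yolk sac CD45- control replicate 1 (2.84) or Tie-2-Etv2 replicate 1 (2.84). Bcam, a laminin alpha5 receptor, fell by 3.83 ± 0.45 and Itga3, the alpha3 integrin of laminin receptors, fell by 2.88 ± 0.49 on the log2 scale. Of 27 matrix proteases and inhibitors 16 fell and 2 rose (median -2.12). Hpse, the heparanase that cleaves perlecan's heparan sulfate, rose (4.00 ± 0.41, adjusted p = 5.24e-05). Mmp9, a gelatinase that degrades collagen IV, rose by 3.17 ± 0.78 and lost the call without control replicate 2 (2.65, adjusted p = 0.0695). Plat, the tissue plasminogen activator, fell (-4.25 ± 0.84), as did the aggrecanase Adamts4 (-3.90 ± 0.61). The background in this comparison was 15.8% lower and 26.1% higher, and the marker values given above for these cells apply to every list.

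In yolk sac CD45+ cells the lists held calls in both directions, beside 18.1% of all genes called higher and 14.4% lower. Of the 10 other chains 5 fell and none rose (median -1.02), with Lamb2 at -2.97 ± 0.37 (adjusted p = 0.000219) and Lamb3 at -2.79 ± 0.46 (adjusted p = 0.00102). Of the 21 other components 5 rose and 4 fell, shares near those of all genes. Hmcn1, hemicentin 1, was not well above background on control arrays and was at least 9.96-fold higher (adjusted p = 5.71e-06). Col18a1, the chain that holds endostatin, was higher by 2.39 ± 0.25 (adjusted p = 7.36e-05). Smoc2 was lower by -2.94 ± 0.85, a call lost without control replicate 1 (-1.76) or Tie-2-Etv2 replicate 1 (-2.16). Of 28 processing genes 9 fell and 1 rose, with Serpinh1, the collagen chaperone HSP47, at -2.67 ± 0.30 (adjusted p = 0.000114). Loxl3, a lysyl oxidase, was not well above background on Tie-2-Etv2 arrays and was at least 8.11-fold lower (adjusted p = 5.62e-05). Of 19 receptors 3 rose and 7 fell, with Itgb3 at 5.17 ± 0.46 and Sdc3, a syndecan, at -4.08 ± 0.44. Of 27 proteases and inhibitors 4 rose and 10 fell, with Timp2, an inhibitor of matrix metalloproteinases, at -4.56 ± 0.40 and Ctsb, cathepsin B, at -3.27 ± 0.29.

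In embryo CD45- cells, where 1.29% of all genes were called, 1 of 19 receptors and 1 of 27 proteases and inhibitors rose, and limma called no gene of the other 3 lists, where 0 of 10 chains, 2 of 21 components and 2 of 28 processing genes had an unadjusted p under 0.05. Itgb3 (4.45 ± 0.46, adjusted p = 0.000501) and Hpse (2.70 ± 0.41, adjusted p = 0.00676) rose, and the Hpse call was lost without control replicate 1 (2.47) or Tie-2-Etv2 replicate 1 (2.52). In embryo CD45+ cells, where 3.01% of all genes were called, 3 of 21 components, 3 of 19 receptors and 3 of 27 proteases and inhibitors rose, and none of these lists held a fall. Hmcn1 was at least 4.37-fold higher (adjusted p = 0.00102) and Itga1, the alpha1 integrin that binds collagen IV, at least 7.17-fold higher (adjusted p = 0.00231), both without a level well above background on control arrays. Of 11 endothelial markers 5 rose in those cells, with sums of 7.32 to 7.71 on Tie-2-Etv2 arrays against 5.74 to 6.15 on control arrays.

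Between the CD45 gates of control embryos 6 of the 10 other chains, 14 of 21 components and 11 of 28 processing genes were lower in CD45+ cells, with 0, 0 and 1 higher in the same lists. Of 19 receptors 7 were lower and 1 higher, and of 27 proteases and inhibitors 12 were lower and 9 higher, beside 16.6% of all genes lower and 19.9% higher. Lamb1, the beta1 chain that pairs with Lamc1, differed by -5.92 ± 0.43 (adjusted p = 2.33e-06), Mmrn2, an endothelial matrix protein, by -7.17 ± 0.32 (adjusted p = 6.63e-08) and Pxdn, the peroxidasin that crosslinks collagen IV, by -5.61 ± 0.49 (adjusted p = 7.9e-06). Itga1 was not well above background in CD45+ control embryo cells and was at least 41.9-fold lower (adjusted p = 4.68e-06). Timp3, a matrix-bound metalloproteinase inhibitor, differed by -6.46 ± 0.39 and Hpse by 4.44 ± 0.41, so the heparanase stood opposite to the chains. Between control tissues, P4ha2 (4.66 ± 0.44, adjusted p = 0.000201) and Tinagl1 (2.92 ± 0.41, adjusted p = 0.00217) were higher in yolk sac CD45- cells, as were Lama1 and Lama5.

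Over the 16 arrays the chains were correlated with one another to differing degrees. Of all pairs of members Col4a1 and Col4a2 had the highest Pearson correlation, at 0.999, and Lama4 and Nid2 the lowest, at 0.638. Nid1 and Hspg2 correlated at 0.985 and Lama4 and Hspg2 at 0.975. Lama1 was most like Lama5 among the members, at 0.943. Measured against the mean of Col4a1 and Col4a2 among 15164 genes, Nid1 ranked 11th in likeness (r = 0.989) and Nid2 1332nd (r = 0.815). Between them Hspg2 ranked 62nd, Lamc1 303rd, Lama4 358th, Lama1 571st and Lama5 856th. The 8 genes outside the list that were most alike were Loxl2 and Lamb1 (r = 0.992 each), Dhh, Fkbp10, Clec14a, Sema3g, Tns2 and Ackr2 (r from 0.990 to 0.992). Lamb1 read 3.60 and 4.06 on yolk sac CD45- Tie-2-Etv2 arrays, against 7.23 and 7.63 on control arrays (-3.60 ± 0.43, adjusted p = 0.000131). Loxl2, a lysyl oxidase that crosslinks collagen IV, read 1.78 and 3.01 on those Tie-2-Etv2 arrays, against 5.50 and 5.79 on control arrays (-3.25 ± 0.55, adjusted p = 0.000995). Both genes were picked by their likeness to the collagen pair over all 16 arrays, these included, so their falls here are no separate evidence. These correlations describe 16 arrays that share their slides, sort gates and scaling.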

How the data were processed

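The files hold spot intensities of 1-colour arrays, deposited as Agilent Feature Extraction 10.7 wrote them (per the submitters' processing notes and the headers). Background had been subtracted within each array, and nothing had been scaled between arrays. The deposited value table holds log2 values. Set against the scanner values it proved to be the log2 processed intensity with a constant added per array and each probe centred on its median over the 4 arrays of a tissue and gate, in the direction of higher for brighter; why the constants were added is not known. Its column medians (Tie-2-Etv2 replicates 1 and 2, then control 1 and 2) were 0.0280, -0.0323, 0.175 and -0.0935 in embryo CD45- cells, 0.00544, -0.0324, 0.165 and -0.0836 in embryo CD45+ cells, 0.0155, -0.00448, 0.0847 and -0.183 in yolk sac CD45- cells, and -0.00892, -0.121, 0.146 and 0.00328 in yolk sac CD45+ cells. It served as an alternative for the genotype comparisons alone.

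Outlier and control spots were left out and spots of a probe averaged, which lost 87 of 55681 probes. Each array was scaled to its 75th percentile, and the 34125 probes kept were those well above background on each array of 1 group or more. The brightest probe stood for a gene. Gene names were updated through a RefSeq table (26539 probes by accession, 2596 by symbol, 491 by synonym), and probe coordinates are those of the files (mm9). The other 25968 probes matched no single gene there and kept the gene name or accession of the files. Those of them that passed the filter count among the 24579 genes. Group means of the 16 arrays were modelled in limma 3.58.1, R 4.3.3 (lmFit, eBayes, 8 residual and 2.29 prior degrees of freedom, two-sided, Benjamini-Hochberg over 24579 genes), after a test on simulated data. Tables and figures used Python 3.11.15, pandas 2.3.3, numpy 2.4.6 and matplotlib 3.10.9. A difference "at least N-fold" sets the brighter group's mean against the lowest signal well above background, or the probe's own where higher, on the dim arrays. The relative comparison subtracted the mean of 11 of 12 listed endothelial markers on each array. Alternatives changed the scaling, background correction, filter, probe choice, arrays in the fit, replicate block and single arrays.

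The members and gene lists were chosen with earlier results of these data known. All members are named. From each list, genes come from the 2 largest rises and 2 largest falls among those called, and the 8 genes most like the collagen IV pair are named. Not every gene picked by this rule is described, and 1 of them is not reported here.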

Additional observations from a re-analysis of the deposited data

Results flagged for a closer look

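The genotype effect differed between groups for several chains when the difference itself was tested in limma. In CD45- cells the yolk sac effect minus the embryo effect was called for all 9: it was -3.25 for Col4a1, -3.29 for Col4a2, -5.55 for Lama1, -2.47 for Lama4, -2.55 for Lama5, -2.61 for Lamc1, -2.78 for Nid1, -1.95 for Nid2 and -1.34 for Hspg2 on the log2 scale. Each of these chains fell in the yolk sac and did not pass the test in the embryo. The arrays of each tissue lay on a slide of their own, and both genotypes shared that slide in columns of their own.

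In the yolk sac the CD45+ effect minus the CD45- effect was called for 7 of 9: it was 2.44 for Col4a1, 2.88 for Col4a2, 2.98 for Lama1, 5.30 for Lama4, 2.61 for Lamc1, 3.34 for Nid1 and 2.47 for Hspg2. Lama4 was the member called in opposite directions in the gates: it was higher on both transgenic CD45+ arrays, and lower on both transgenic CD45- arrays, than on the control arrays of the same gate. Its CD45+ control signals were dim, at processed intensities of 21.8 and 14.5.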

How the results depend on the processing

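The falls of all 9 chains in yolk sac CD45- cells, and their lower levels in CD45+ cells of control embryos, control yolk sacs and Tie-2-Etv2 embryos, were called under every alternative run that gave a count, except that Nid2 in control embryos lost the call without embryo CD45- control replicate 1 (-1.02, adjusted p = 0.0663). Of the alternatives to single member values other than leaving out an array, 1644 kept direction and side of the threshold, 17 lost the call, 12 gained it and 1 turned: Lama4 relative to endothelial markers in yolk sac CD45+ cells, -0.8128 with normexp. Leaving out an array kept 789, ended 62 and added 13. Counts of members called that moved by over 1.5 times were as follows. In embryo CD45+ genotype effects the count of 0 was 1 with the mean over probes (0 to 1 without single arrays). In yolk sac CD45+ genotype effects the count of 4 was 2 in a fit of these groups alone (2 to 6 without single arrays). Between tissues, the count of 5 in control CD45- cells was 1 to 4 and the count of 0 in control CD45+ cells 0 to 4 without single arrays. In Tie-2-Etv2 CD45+ cells the count of 1 was 0 without the filter and 0 in a fit of the groups alone (0 to 1 without single arrays). For the tissue difference of genotype effects, the count of 9 in CD45- cells was 5 to 9 without single arrays, and the count of 0 in CD45+ cells was 1 with quantile normalization, with normexp, with the stricter filter and with the mean over probes (0 to 1 without single arrays). Relative to endothelial markers, the count of 6 in embryo CD45+ cells was 2 to 8 without single arrays. Removal of an array from a pair leaves 1, assumed to vary like the other groups. The causes were not tested. Same-numbered replicates deviated together with r of -0.0475 to 0.385 over 28 pairs of groups, over 0.1 in 8. Between the gates of a tissue and genotype r was 0.222 in Tie-2-Etv2 embryos, 0.385 in control embryos, 0.372 in Tie-2-Etv2 yolk sacs and 0.0321 in control yolk sacs. The labels do not say that a number marks shared animals, and a block for each tissue and genotype was not fitted. With the replicate number as a block over all arrays the count relative to endothelial markers in yolk sac CD45- cells was 6 and not 7, with Lama5 at -1.205 (adjusted p = 0.0543), and no other member call changed. Signal over background limits the dimmer probes: the last Nid1 probe was not well above background on the 8 CD45+ arrays. Lama4 was well above background on every array, but was dim in yolk sac CD45+ control cells (processed intensities of 21.8 and 14.5).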

Other observations

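Erythroid markers, which the comparisons above do not use, had a median difference of -0.87 between Tie-2-Etv2 and control cells in the CD45- cells of the yolk sac, where 1 of 10 rose and 1 fell by limma. Their summed log2 signal there was 9.35 to 9.96 on Tie-2-Etv2 arrays, against 10.24 to 10.76 on control arrays. In yolk sac CD45+ cells 1 of 10 fell (median -0.77), with sums of 9.46 to 9.64 on Tie-2-Etv2 arrays against 9.94 to 10.40 on control arrays. In embryo CD45- cells 0 of 10 were called by limma, with 1 at an unadjusted p under 0.05, beside 1.29% of all genes called. The median was 0.84, with sums of 9.65 to 10.52 on Tie-2-Etv2 arrays against 8.63 to 9.64 on control arrays. In embryo CD45+ cells 0 of 10 were called by limma, with 1 at an unadjusted p under 0.05, beside 3.01% of all genes called. The median was 0.15, and the sums overlapped, at 9.25 to 10.54 on Tie-2-Etv2 arrays and 8.69 to 9.89 on control arrays.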
